A study of Mus musculus with 8 samples.

Results

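Msi2 and 8 other RNA-binding proteins that regulate messenger RNA in blood stem cells (Syncrip, Dazap1, Igf2bp2, Igf2bp3, Elavl1, Pum2, Celf2 and Lin28b) were followed in mouse LSK cells in which Msi2 had been deleted. The members were chosen by gene name, with earlier results of these data known. Every probe set annotated to a member gene alone was taken unless it stood at 0 on all 8 arrays. 7 of the 9 genes were measured, among 10721 genes with a measured probe set of their own. They had 30 measured probe sets out of 38 annotated to them. Lin28b was listed at 0 on its single probe set, and Igf2bp2 was unnamed in the annotation used here, so neither has a value.

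The arrays held RNA of LSK cells from bone marrow of 4 mice with a conditional Msi2 knockout (Msi2 KO) and of 4 normal mice (control, labelled WT). LSK cells are marrow cells without lineage markers that display Sca-1 and Kit, and blood stem cells and multipotent progenitors lie among them. The driver of the deletion, the exons removed, any treatment that induced it, and the ages and strain of the mice are not given in the sources used here. No alleles or agents shared by both groups are named.

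Musashi proteins bind short UAG-containing motifs in the untranslated regions of messenger RNAs and alter their translation and stability. In blood, Msi2 is the Musashi of stem and progenitor cells, and its loss is known to impair stem cell maintenance. The other members also act on RNA, though not all at the same step. Syncrip was described as a partner of Msi2 in myeloid leukaemia, Dazap1 carries a pair of RNA recognition motifs related to those of Musashi, Elavl1 (HuR) stabilises AU-rich messages, Pum2 represses messages with Pumilio elements, Celf2 binds GU-rich elements and regulates splicing, and Lin28b with the Igf2bp proteins belongs to the fetal programme held down by let-7 microRNAs. The question was whether any of them is higher where Msi2 is lower.

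The promoters of the deleted gene and of Dazap1, the relative with the highest mean difference per gene over probe sets that averaged at least 5 in both groups (0.32, next Elavl1 with 0.20), are shown because each holds the E-box CACGTG, printed in capitals. Each run is the 250 bases upstream of a RefSeq start site in build GRCm38.p6, for Msi2 at chr11:88718278-88718527 on the minus strand and for Dazap1 at chr10:80264764-80265013 on the plus strand.
Msi2: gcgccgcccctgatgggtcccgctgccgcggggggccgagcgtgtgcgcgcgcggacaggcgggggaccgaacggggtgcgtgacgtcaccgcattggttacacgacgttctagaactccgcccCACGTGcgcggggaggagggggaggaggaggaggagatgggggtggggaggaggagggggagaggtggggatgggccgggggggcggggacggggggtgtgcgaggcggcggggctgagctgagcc
Dazap1: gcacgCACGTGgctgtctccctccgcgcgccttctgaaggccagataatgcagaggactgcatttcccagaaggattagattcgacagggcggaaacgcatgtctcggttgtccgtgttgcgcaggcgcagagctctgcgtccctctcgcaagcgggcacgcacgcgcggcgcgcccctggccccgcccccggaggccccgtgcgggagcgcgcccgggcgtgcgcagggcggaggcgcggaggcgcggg

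The first base of the printed E-box lay at -126 from the start site in Msi2 and at -245 in Dazap1. The Msi2 window held a second CACGTG at 6, beyond the printed bases. In windows from 250 bases before to 50 after the start, CACGTG was present in the first listed window of 4 of the 9 genes (Msi2, Dazap1, Igf2bp3 and Lin28b), while 7.15% of 32851 such windows of all genes held it. The Msi2 window also held the cyclic AMP element TGACGTCA, which 1.79% of all windows hold. CCAAT stood in the windows of 4 members (37.4% of all windows), GGGCGG in 5 (35.7%) and TATAAA in 1 (13.6%). Both strands were searched, the E-box and the cyclic AMP element did not share bases in the Msi2 window, and the motifs were chosen after the promoters had been read. A match describes the letters of a window and does not mark a bound site, and these windows were not matched in GC content to the rest. No promoter activity or binding was measured in this study.

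Values are log2 signals per probe set, so a difference of 1 is a doubling, and levels of different probe sets are not comparable with each other. Array medians ran from 7.03 to 7.07 and correlations between arrays from 0.942 to 0.983, and 8 arrays give limited precision. Msi2 KO 3 lay far from the other arrays. Its score on principal component 1, which carried 28.6% of the variance, was 69.4, while the others scored -39.4 to 17.0, and it had the highest difference between the ends of actin messages (0.287, others -0.118 to 0.133). Main results are therefore also given without this array. Xist was low on Msi2 KO 1 and 2 and control 1 (4.79 to 5.55) and high on the other arrays (11.9 to 12.5). Marker lists of the gate and of other cells also moved. The summed signal of 8 measured LSK markers of 10 was 12.41, 12.43, 11.05 and 12.26 in Msi2 KO arrays 1 to 4. It ran from 12.29 to 12.46 in control arrays, so that only KO 3 lay far below them. With KO 3 included, 7 of the 8 had lower means in KO. Kit itself averaged 9.04 in KO and 8.70 in control. All 7 measured erythroid markers of 10 had higher means in KO, with summed signals of 12.82 to 14.07 in KO and 12.15 to 13.07 in control. Among them Slc4a1 averaged below 5 in both groups (4.03 in KO, 3.84 in control), and the globin Hba-a1 was at 0. The 4 measured macrophage markers of 6 also had higher means, with C1qa and C1qc at 0. Their summed signals were 10.50, 10.28, 7.88 and 10.45 in KO arrays 1 to 4 and 7.14 to 8.92 in control. Among them Adgre1 averaged below 5 in both groups (3.92 in KO, 3.51 in control). Of the 4 measured mast cell markers of 6, 3 had higher means, with Gzmb at 0. Summed signals of the 4 were 7.93 to 9.19 in KO and 6.97 to 8.05 in control. Of 9 neutrophil and monocyte markers 8 were measured, with 13.82 to 14.33 in KO and 13.45 to 14.29 in control. The 2 measured B cell markers of 6 were lower (7.72 to 8.68 in KO, 8.36 to 9.56 in control; Cd79a, Ebf1 and Pax5 at 0). The 2 measured stroma and endothelium markers of 7 spanned 6.74 to 7.54 in KO and 7.34 to 8.34 in control. No T cell marker was measured, and Cd3e, Cd3g, Cd4 and Cd8a were at 0. The part of these marker differences in the results that follow was not tested.

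Msi2 itself fell in the knockout, but unevenly. Its remaining signal ranged from most of the control level on one KO array to a small part of it on another. On the brightest probe set, 1421230_a_at, Msi2 had 11.36, 11.20, 8.73 and 10.38 in Msi2 KO arrays 1 to 4 and 11.65, 11.40, 11.48 and 11.62 in control arrays 1 to 4. On 1435520_at it had 10.02, 10.16, 7.93 and 9.46 in KO and 11.17, 10.70, 10.79 and 10.66 in control. On both probe sets every KO array lay below every control array, with KO 3 lowest.

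Probe set 1435521_at read 10.92, 10.46, 8.58 and 9.97 in KO and 11.36, 11.18, 11.37 and 11.20 in control. Probe set 1436818_a_at read 9.88, 9.59, 7.91 and 9.01 in KO and 10.47, 10.22, 10.49 and 10.39 in control. The same separation and the same order of KO arrays 3, 4, 2 and 1 from the lowest up held on these probe sets and on 1421230_a_at. The dim 1443008_at gave 4.90, 4.59, 4.08 and 4.39 in KO and 6.33, 4.89, 4.80 and 5.76 in control, and here KO 1 lay within the control range. Annotated to Msi2 too were 1421231_at, 1441185_at and 1458136_at, which stood at 0 on all arrays.

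The differences, Msi2 KO minus control, were -1.12 for 1421230_a_at, -1.44 for 1435520_at, -1.30 for 1435521_at, -1.30 for 1436818_a_at and -0.95 for 1443008_at. The first 4 reached the smallest two-sided p of an exact permutation test over the 70 assignments of 4 and 4 arrays (p = 0.0286), and the dim probe set had p = 0.0857. In the limma fit over 24404 probe sets none of the 5 passed the adjusted threshold of 0.05 (adjusted p 0.378 to 0.517), with SD of 1.21 in KO and 0.12 in control on 1421230_a_at. None of the 24404 passed (0.0% called; smallest adjusted p 0.0609), and 2371 (9.72%) had an unadjusted p under 0.05.

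Averaged over the 5 probe sets with a control mean of at least 5, the Msi2 level was 9.42, 9.20, 7.44 and 8.64 in KO and 10.20, 9.68, 9.78 and 9.93 in control. The difference of -1.22 had an exact permutation p of 0.0286 (two-sided), and it was -0.81 without Msi2 KO 3. The dim 1443008_at averaged 4.49 in KO and entered this level through its control mean of 5.44. Over the 4 probe sets that averaged at least 5 in both groups the difference was -1.29 (exact permutation p = 0.0286). The relations to the Msi2 level given further on used all 5 probe sets. As shares of the control mean, over the 4 probe sets that averaged at least 5 in both groups, KO arrays 1 to 4 kept 72.6%, 63.4%, 15.1% and 40.5% of the Msi2 signal, and control arrays ran from 91.1% to 111%. In RNA of whole cell samples, fewer cells with Msi2 and less Msi2 per cell cannot be told apart. Whether the probes lie inside or outside the deleted exons is not given, so the remaining signal can hold messages without the deleted part.

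**Figure D1:**
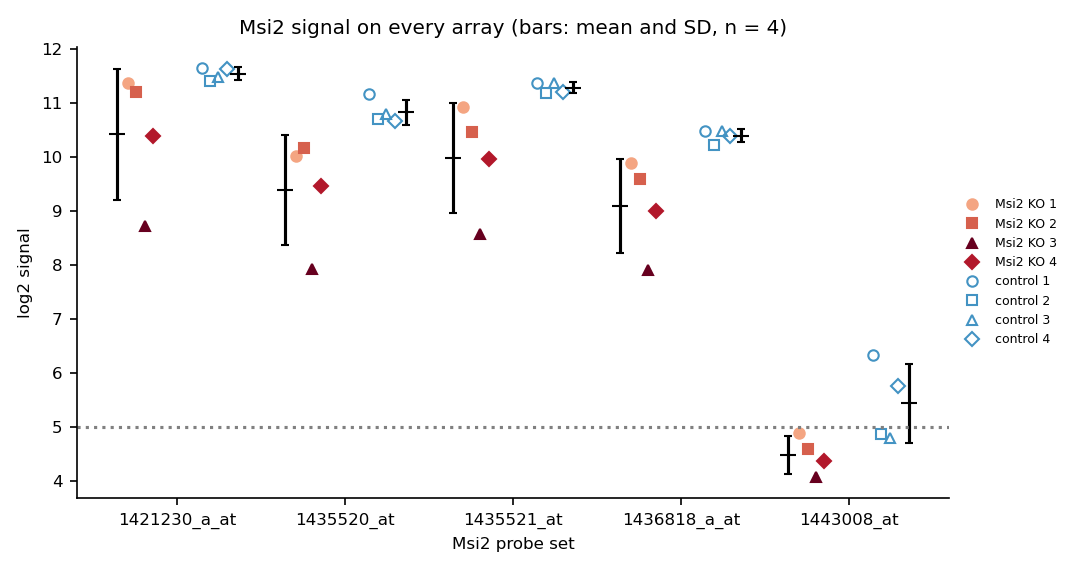
Msi2 signal (log2, vertical axis) on each measured probe set, with Msi2 KO arrays left of control arrays, 1 point per array and bars for the group mean and SD; the dotted line marks 5. KO 3 is lowest on all 5 probe sets, and on the 4 bright ones every KO array lies below every control array.

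No relative passed the adjusted threshold in either direction. The 25 probe sets of the 6 measured relatives had adjusted p of 0.445 to 0.996, 8 had a higher mean in KO and 17 a lower one, while 50.1% of all probe sets had a higher mean. Their median difference was -0.10, against 0.00 over all probe sets, and their median size was 0.15, against 0.17 over all. For none of the 25 were the 4 KO arrays clear of the 4 control arrays, which was so for 6.09% of all probe sets (3.12% with KO above, 2.96% with KO below). 2 of the 25, both with higher means in KO, had an unadjusted p under 0.05 (Dazap1 1419275_at and Elavl1 1428653_x_at), against 4.87% of all probe sets in that direction; 0 were lower with such a p (4.84% of all probe sets). 5 of the 25 averaged below 5 in a group, and the other 20 differed by -0.38 to 0.37. At least 3 of 4 KO arrays lay above every control for 2 of the 25 (11.2% of all probe sets) and below every control for 7 (10.6%).

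**Figure D2:**
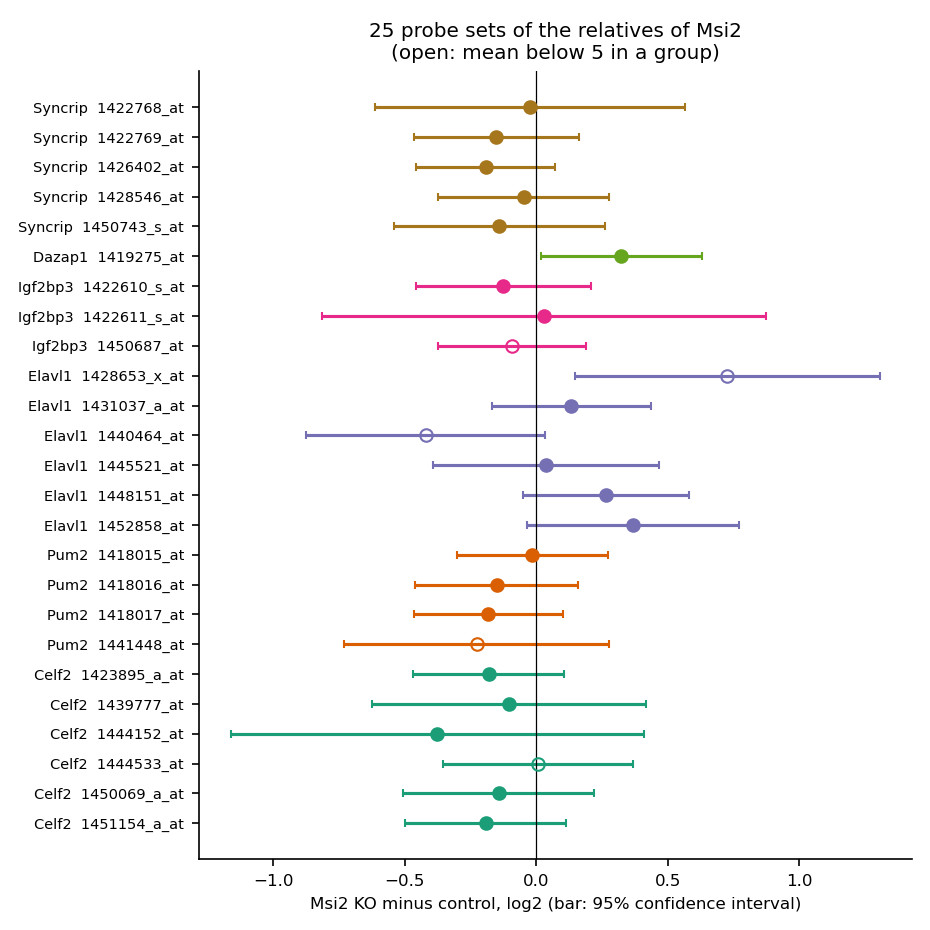
Difference of Msi2 KO minus control (log2, horizontal axis) for each measured probe set of the 6 relatives, with its 95% interval from limma; open points average below 5 in a group. The points gather near 0, most below it, and the higher values belong to Dazap1 and Elavl1.

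Dazap1 had a higher mean in KO on its single probe set, and Syncrip a lower mean on each of its 5. Dazap1, whose protein acts in splicing and translation, had 9.26, 9.51, 9.60 and 9.43 in KO on its only probe set (1419275_at) and 9.28, 9.13, 9.17 and 8.94 in control. KO arrays 2, 3 and 4 lay above every control array, while KO 1 was level with control 1. The means were 9.45 ± 0.14 in KO and 9.13 ± 0.14 in control (SD, n = 4 each), a difference of 0.32 (SE 0.14, 95% interval 0.02 to 0.63), or 1.25-fold. This did not pass (limma adjusted p = 0.496; exact permutation p = 0.0571), with 3 of 4 KO arrays above every control. Without Msi2 KO 3 the difference was 0.27, and its limma p no longer lay under 0.05 before adjustment (unadjusted p = 0.089, adjusted p = 0.623).

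Syncrip, which binds and steers many messages and was described as an Msi2 partner, had lower means on all 5 probe sets, with a median difference of -0.14. On 1426402_at it had 11.14, 11.15, 11.34 and 11.25 in KO and 11.33, 11.42, 11.45 and 11.44 in control. 3 KO arrays lay below every control array and KO 3 overlapped, for a difference of -0.19 (95% interval -0.46 to 0.07; limma adjusted p = 0.629; exact permutation p = 0.0571). On 1450743_s_at it had 10.60, 10.27, 11.05 and 10.78 in KO and 10.64, 10.89, 10.84 and 10.90 in control, where KO 3, the array lowest in Msi2, was the highest of all. The remaining 3 differed by -0.15 (1422769_at), -0.05 (1428546_at) and -0.02 (1422768_at). Without Msi2 KO 3 the 5 differences of Syncrip were -0.23 (1426402_at), -0.27 (1450743_s_at), -0.22 (1422769_at), -0.14 (1428546_at) and -0.20 (1422768_at), with limma adjusted p of 0.623 to 0.855. 1422768_at, 1422769_at and 1450743_s_at were designed from the same sequence and are not independent readings of Syncrip.

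Elavl1, which protects AU-rich messages from decay, had higher means on 5 of its 6 probe sets, with a median difference of 0.20. On the bright 1448151_at it had 10.44, 10.64, 10.57 and 10.40 in KO and 10.52, 10.20, 10.10 and 10.18 in control. Every KO array was above controls 2, 3 and 4, while control 1 lay within the KO range. The difference was 0.27 (95% interval -0.05 to 0.58; limma adjusted p = 0.575; exact permutation p = 0.0857). The other bright probe set, 1431037_a_at, had 10.47, 10.39, 10.32 and 10.34 in KO and 10.49, 10.10, 10.27 and 10.12 in control, a difference of 0.13 with control 1 again the highest.

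The dimmer Elavl1 probe sets did not share a direction. On 1428653_x_at the gene had 6.01, 5.31, 5.33 and 4.69 in KO and 4.63, 4.87, 4.56 and 4.38 in control. KO 4 fell inside the control range, and the difference was 0.73 (SE 0.26; limma adjusted p = 0.445; exact permutation p = 0.0571). The _x_at ending marks probes that can match other transcripts. On 1440464_at, at 3.74 to 4.15 in KO and 4.05 to 4.86 in control, the difference was -0.42, and on 1445521_at it was 0.04, or -0.06 without Msi2 KO 3. 1452858_at, which was designed from the same sequence as 1428653_x_at, differed by 0.37, with 6.05 ± 0.26 in KO and 5.68 ± 0.24 in control (SD, n = 4 each).

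Pum2, a repressor that recruits deadenylases to its targets, had lower means on all 4 probe sets, with differences of -0.02 to -0.23. On 1418017_at it had 9.91, 9.71, 9.92 and 10.00 in KO and 9.92, 10.16, 10.07 and 10.11 in control. The KO arrays were at or below the lowest control but for KO 4, which lay above control 1 alone. The difference was -0.18 (95% interval -0.47 to 0.10; limma adjusted p = 0.679; exact permutation p = 0.0571). 1418015_at (-0.02), 1418016_at (-0.15) and 1418017_at share their design sequence, and the dim 1441448_at differed by -0.23. That of 1418015_at was 0.04 without Msi2 KO 3.

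Celf2, a regulator of splicing and message decay, had lower means on 5 of 6 measured probe sets and 0.00 on the dim 1444533_at. On 1423895_a_at it had 11.16, 11.17, 11.08 and 11.35 in KO and 11.22, 11.33, 11.49 and 11.44 in control, with 3 KO arrays below every control. The difference was -0.18 (limma adjusted p = 0.685; exact permutation p = 0.0857). The widest, -0.38 on 1444152_at, came with values of 8.18 to 9.48 in KO and 8.21 to 9.54 in control, so that the spread within each group exceeded it. Differences of -0.19 (1451154_a_at), -0.14 (1450069_a_at) and -0.10 (1439777_at) completed the gene, and 1451155_at was at 0. Without Msi2 KO 3 the differences of Celf2 were -0.22 on 1444152_at, -0.14 on 1423895_a_at, -0.12 on 1451154_a_at, -0.01 on 1450069_a_at, 0.01 on 1439777_at and 0.05 on 1444533_at.

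Igf2bp3, an oncofetal protein that stabilises messages, gave no common direction over its probe sets. On 1422611_s_at it had 6.54, 5.28, 5.24 and 4.85 in KO and 5.24, 5.01, 6.15 and 5.39 in control, with KO 1 and control 3 high in their groups and a difference of 0.03. On 1422610_s_at it had 7.01, 7.06, 7.04 and 6.73 in KO and 7.23, 6.82, 7.21 and 7.07 in control, a difference of -0.13. The dim 1450687_at, at 3.18 to 3.52 in KO and 3.37 to 3.47 in control, differed by -0.09. Igf2bp3 differed by 0.11 on 1422611_s_at and -0.05 on 1450687_at without Msi2 KO 3. Its other 3 probe sets were at 0, as was the probe set of Lin28b, which blocks let-7 maturation.

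Averaged per gene over probe sets that reached 5 in both groups, as deviations from the control mean, Dazap1 was at 0.13, 0.38, 0.48 and 0.30 in KO and 0.15, 0.00, 0.04 and -0.19 in control (exact permutation p = 0.0571). For Elavl1 they were 0.18, 0.24, 0.25 and 0.14 in KO and 0.21, -0.05, 0.00 and -0.16 in control (exact permutation p = 0.0857). Their KO arrays were all above 0, and control 1 was the control that overlapped them in both genes. Control 1 was also the only control array low in Xist. Pum2 had -0.04, -0.23, -0.12 and -0.07 in KO and -0.07, -0.03, 0.05 and 0.05 in control (exact permutation p = 0.0571). For Celf2 the KO values were -0.08, -0.13, -0.50 and -0.09 (exact permutation p = 0.229), and for Syncrip they were -0.32, -0.26, 0.19 and -0.05 (exact permutation p = 0.400). Igf2bp3 spread from 0.51 on KO 1 to -0.48 on KO 4 (exact permutation p = 0.771). Msi2, on the same scale, had -0.46, -0.66, -2.72 and -1.30 in KO.

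**Figure D3:**
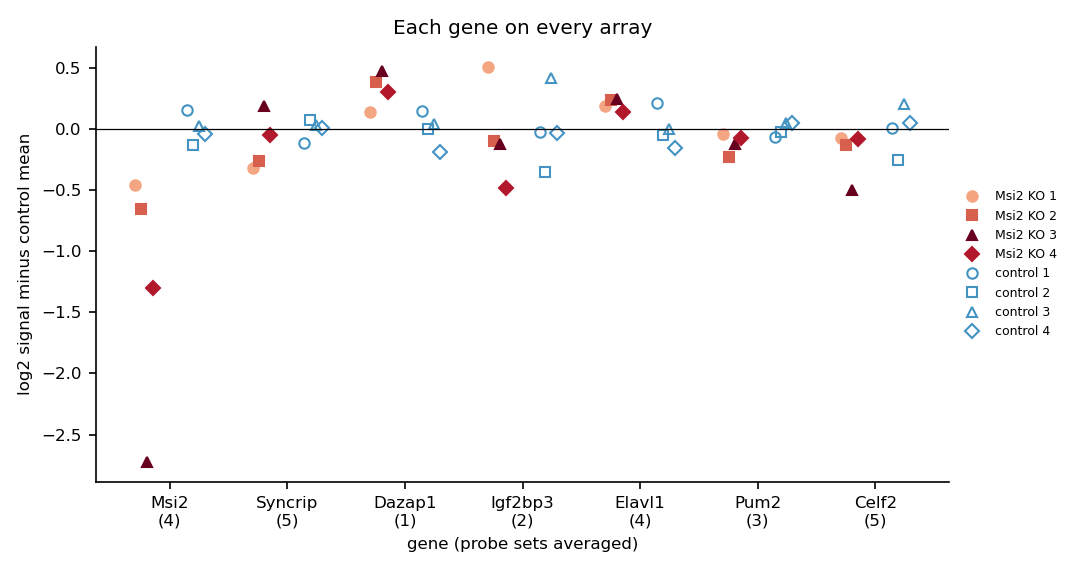
Mean deviation from the control mean (log2, vertical axis) of Msi2 and each relative on every array, averaged over probe sets with group means of at least 5, Msi2 KO left of control. Msi2 reaches -2.72 on KO 3, while the 6 relatives stay between -0.50 and 0.51.

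Because Msi2 signal differed widely among KO arrays, each relative was also set against the Msi2 level over all 8 arrays. A negative correlation means a higher relative on arrays with less Msi2. 10 of the 25 probe sets had a negative Pearson r and 15 a positive one, against 50.2% negative over all probe sets. None passed after adjustment over the 24399 probe sets other than those of Msi2 that define the level (adjusted p of r 0.228 to 0.945, exact permutation over every pairing of 8 arrays), nor did any probe set of the array (smallest 0.0864). Before adjustment 1 negative r had p under 0.05 (7.62% of all probe sets did) and 1 positive r (6.91%).

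The negative one was Dazap1, with r = -0.78 (exact permutation p = 0.0184, adjusted p = 0.249) and Spearman rho = -0.71 (exact permutation p = 0.0576, adjusted p = 0.469). Without Msi2 KO 3 and KO 4, the arrays farthest from the median Msi2 level, r was -0.58 (exact permutation p = 0.203). Dazap1 was higher in 3 of 4 KO arrays than in any control, and its top value fell on KO 3, where Msi2 was lowest. The positive one was the dim Igf2bp3 probe set 1450687_at, with r = 0.80 (exact permutation p = 0.0139, adjusted p = 0.228) and rho = 0.62 (exact permutation p = 0.115, adjusted p = 0.556); its r was 0.01 without those 2 arrays, so this relation rested on them. For Elavl1, 1448151_at had r = -0.48 and rho = -0.48 (exact permutation p = 0.239 and 0.243), while the other bright probe set, 1431037_a_at, had r = -0.10. Syncrip ran from r = -0.51 (1422768_at) to 0.25 (1426402_at), and the 6 Celf2 probe sets from 0.18 to 0.71. Arrays of a group share its condition, and 4 arrays are too few for a correlation within KO or within control.

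A linear fit of the Msi2 level in limma called 358 of 24399 probe sets (1.47%, of which 165 had a negative slope), and 0 member probe sets. Dazap1 had a slope of -0.19 (SE 0.08, limma adjusted p = 0.279). Without Msi2 KO 3 the same fit called 0 probe sets, with 1681 at an unadjusted p under 0.05. Leaving out KO 3 also narrowed the range of the Msi2 level, and no other array was left out of this fit. With the replicate number as a block, the fit on all arrays called 0 probe sets too. Whether the 358 calls rested on KO 3 in particular was therefore not settled. With the group as a second term, so that the slope is read within groups, limma called 203 probe sets (0.832%) and 0 of the 25 of the relatives (adjusted p 0.186 to 0.951). The slope of Dazap1 was then -0.11 (SE 0.12, limma adjusted p = 0.696). 2 of the 25, both of Syncrip, had an unadjusted p under 0.05, against 17.1% of all probe sets. They were 1422768_at (slope -0.51, SE 0.17, limma adjusted p = 0.186) and 1450743_s_at (slope -0.32, SE 0.12, limma adjusted p = 0.217). Both were designed from the same sequence and were highest among all arrays on Msi2 KO 3. The fit with 2 terms was not run without Msi2 KO 3. Whether its 203 calls or these 2 slopes rested on that array was therefore not tested. In the fit of the level alone, 1422768_at had a slope of -0.22, or -0.08 without Msi2 KO 3. There 1450743_s_at had -0.08, or 0.11 without Msi2 KO 3.

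**Figure D4:**
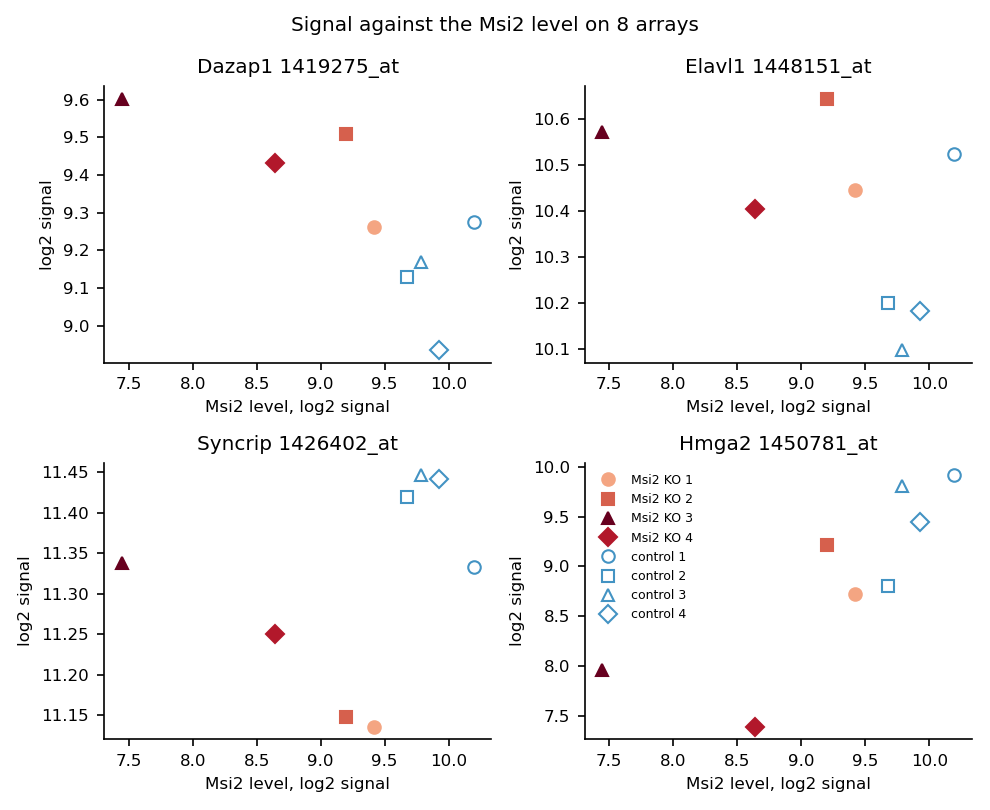
Signal of Dazap1, Elavl1, Syncrip and Hmga2 (log2, vertical axis) against the Msi2 level (log2, horizontal axis) on the 8 arrays, Msi2 KO and control marked separately. KO 3 sits alone at 7.44 on the horizontal axis, and the Dazap1 points run downward with r = -0.78.

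The genes whose pattern over the 8 arrays was closest to that of Msi2 are a description, picked as the top 4 in each direction of 6369 genes averaging at least 7. They were Pim1 (r = 0.994), Notch1 (0.987), Gimap6 (0.976) and Sptbn1 (0.976) on the positive side. Pim1, a survival kinase, had 10.64, 10.56, 9.78 and 10.35 in KO and 11.00, 10.71, 10.73 and 10.78 in control, and Notch1, a receptor of cell fate, had 8.83, 8.56, 7.50 and 8.11 in KO and 9.09, 8.95, 8.99 and 8.96 in control. Both were below every control on all 4 KO arrays and lowest on KO 3. On the negative side stood Gstm5 (-0.985), Nop2 (-0.983), Slc43a3 (-0.976) and Slc25a5 (-0.974). Nop2, a ribosomal RNA methyltransferase, had 8.34, 8.64, 9.24 and 8.79 in KO and 8.18, 8.35, 8.29 and 8.32 in control, highest on KO 3. These 8 had adjusted p of 0.0864 to 0.108 in the exact permutation test, and without Msi2 KO 3 and KO 4 their r ranged from 0.775 to 0.959 on the positive side and from -0.925 to -0.770 on the negative side. None of the 25 relative probe sets reached such values.

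Genes of the same pathways were counted by list, each gene by its probe set with the highest mean. The lists were chosen with earlier results of these data known, so their counts are a description. Among Musashi and its close relatives, 9 of 11 listed genes were measured (Msi1 was at 0), 2 with higher and 7 with lower means in KO (50.4% of genes had a higher one), and a median of -0.11. 0 passed the adjusted threshold, and 1 had an unadjusted p under 0.05 (Dazap1), against 11.1% of 10720 genes. Apart from members, the 2 with the smallest p were Hnrnpa1 (-0.12 on 1455305_x_at) and Hnrnpa0 (-0.19), which package nascent messages. Of 16 family members of the 9 genes, 8 were measured and 7 stood at 0, among them Msi1, Elavl2, Elavl3 and Lin28a; 5 had higher and 3 lower means, with a median of 0.01 and 0 called. The 2 with the smallest p were Pum3 (0.19) and the dim Celf5 (-0.14).

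In the Lin28b and let-7 list, 10 of 16 genes were measured and 9 had lower means, with a median of -0.10 and 0 called. Hmga2, a chromatin protein and classic let-7 target, had 8.72, 9.22, 7.96 and 7.40 in KO and 9.91, 8.80, 9.81 and 9.45 in control. 3 KO arrays lay below every control, and KO 2 lay above control 2 alone. The difference was -1.17 (SE 0.40, limma adjusted p = 0.437; exact permutation p = 0.0571), and -1.05 without Msi2 KO 3. Against the Msi2 level Hmga2 had r = 0.80 (exact permutation p = 0.016, adjusted p = 0.239), rho = 0.88 (exact permutation p = 0.00724, adjusted p = 0.285) and r = 0.67 without Msi2 KO 3 and KO 4. Tut4, which tails let-7 precursors, differed by 0.18. Lin28a, Lin28b, Arid3a and Trim71 were at 0.

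Of 40 other RNA-binding regulators, 37 were measured, 19 with higher and 18 with lower means, a median of 0.00 and 0 called. In 4 of the 37 the groups did not overlap, 3 with KO above and 1 below, while 7.11% of 10720 genes were so separated. Zfp36l1, which drives decay of AU-rich messages, had 8.11, 8.38, 8.74 and 8.08 in KO and 7.14, 7.82, 7.72 and 7.72 in control. All 4 KO arrays were above every control, a difference of 0.73 (SE 0.21, limma adjusted p = 0.378; exact permutation p = 0.0286), or 0.59 without Msi2 KO 3. Pabpc4, a poly(A)-binding protein, had 10.02, 10.35, 10.78 and 10.21 in KO and 9.36, 9.87, 9.77 and 9.93 in control. Pabpc4 was read on 1451296_x_at, and the _x_at ending marks probes that can match other transcripts. Its groups did not overlap either, with a difference of 0.61 (limma adjusted p = 0.425; exact permutation p = 0.0286), or 0.46 without Msi2 KO 3. Against the Msi2 level Zfp36l1 had r = -0.87 (exact permutation p = 0.003, adjusted p = 0.148), rho = -0.93 (exact permutation p = 0.00223, adjusted p = 0.23) and r = -0.98 without Msi2 KO 3 and KO 4. For Pabpc4 these were r = -0.91 (exact permutation p = 0.000893, adjusted p = 0.12), rho = -0.90 (exact permutation p = 0.00456, adjusted p = 0.244) and r = -0.92 without Msi2 KO 3 and KO 4.

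Of 14 genes described as targets of Msi2 or its partners, 11 were measured, 3 with higher and 8 with lower means. Their median was -0.18 and 0 were called. In 4 of them the groups did not overlap, 1 with KO above and 3 below, where 7.11% of 10720 genes did not. Because the list was chosen with earlier results of these data known, this count cannot be tested against that share. Tgfbr1, which relays TGF-beta signals, had 7.60, 7.62, 7.49 and 7.31 in KO and 8.35, 8.16, 8.31 and 8.21 in control. The groups were far apart for their spread, with a difference of -0.75 (SE 0.13, limma adjusted p = 0.291; exact permutation p = 0.0286), and -0.75 without Msi2 KO 3. Cdkn1a, the cell cycle inhibitor p21, had 7.28, 7.79, 7.41 and 7.51 in KO and 8.01, 8.60, 8.31 and 7.92 in control. Every KO array was again below every control, a difference of -0.71 (SE 0.19, limma adjusted p = 0.356; exact permutation p = 0.0286). Jag1 and Cyp1b1 were at 0.

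**Figure D5:**
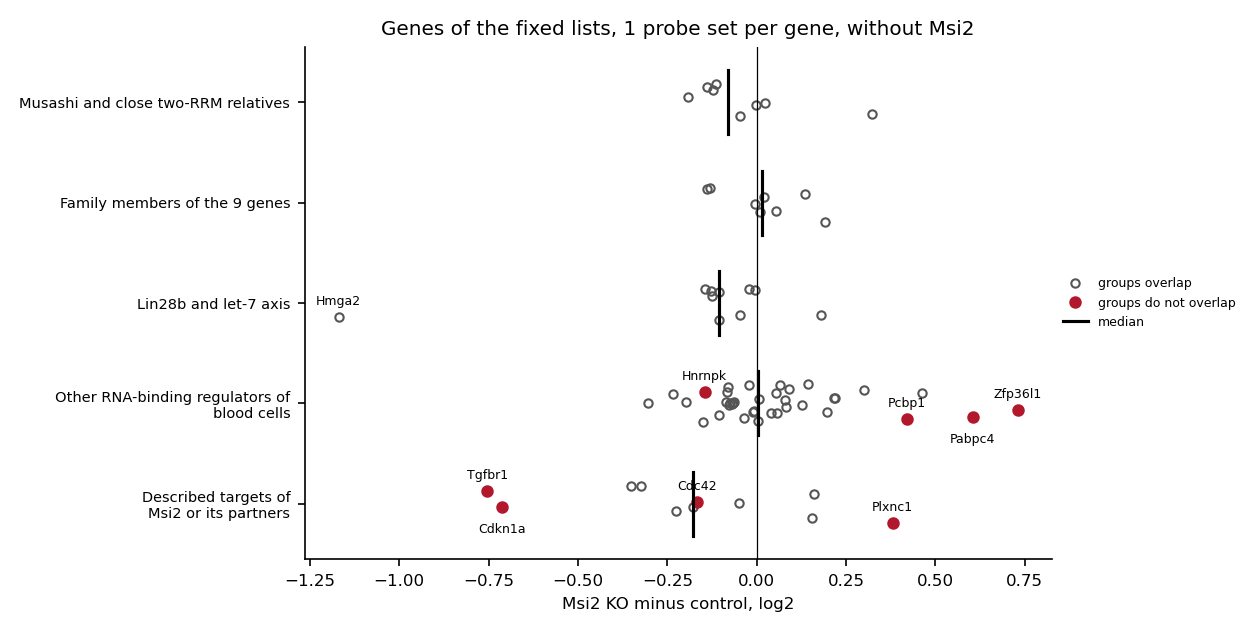
Difference of Msi2 KO minus control (log2, horizontal axis) for each measured gene of the 5 lists other than Msi2, with filled points where the 4 KO arrays and the 4 control arrays do not overlap and a bar at the list median. Hmga2 lies at -1.17, Tgfbr1 at -0.75 and Zfp36l1 at 0.73, and no gene passed the adjusted threshold.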

How the data were processed

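RNA of LSK cells from 4 Msi2 KO and 4 control mice was biotin-labelled and hybridised to Affymetrix mouse arrays, per the labels. The authors deposited log2 signals, 1 per probe set, which they normalized with RMA, per the submitters' processing notes; its version and settings are not given in the sources used here. Of 45101 probe sets, 20664 (45.8%) were at 0 on all 8 arrays, 0 were at 0 on some arrays only, and the remaining values ran from 2.79 to 13.73. The step that set the zeros is not stated. Probe sets at 0 and 64 AFFX controls were left out, which left 24404.

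Names came from the platform's annotation, updated through gene IDs (34754 of 34958 probe sets with 1 name; 932 had several and 9211 none here). Promoters came from RefSeq, GRCm38.p6; all 9 genes matched. Groups were compared with limma 3.58.1 in R 4.3.3 (lmFit, eBayes, two-sided) and Benjamini-Hochberg adjustment over all probe sets at 0.05; every adjusted p of a difference is from that fit. Exact permutation tests were enumerated with numpy 2.4.6, with ranks from scipy 1.17.1. The fit was tested on simulated data. Differences as small as those of most relatives can go uncalled with 4 arrays a group, so a missed threshold is not read as no difference. The labels count 4 mice a group. Same-numbered arrays did not deviate together, so the numbers were not taken as pairs.

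The members and lists were chosen with earlier results of these data known. The text names all probe sets of the members, the 2 non-members with the smallest p in each list, and the 4 genes per direction with the most extreme r with Msi2, without clone-like symbols and _s_at or _x_at probe sets. Alternatives were repeated quantile normalization, median centring, filters on dim, shared or zero probe sets, 1 probe set per gene, a robust prior with intensity trend, weights per array, a block for the replicate number, the Xist level as covariate, and leaving out each array. The 4-probe-set Msi2 level and the slope without Msi2 KO 3 were added after the data were seen.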

Additional observations from a re-analysis of the deposited data

Results flagged for a closer look

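Groups of 4 arrays were screened for a single value far from the rest (Dixon's ratio of the gap to the range above its 95% critical value), which chance meets in about 1 in 20 groups; 5 of 96 groups met it. Igf2bp3 1422610_s_at had its lowest Msi2 KO value at 6.73 on KO 4, with the other KO arrays at 7.01 to 7.06. Syncrip 1428546_at had its highest control value at 9.06 on control 3, with the other controls at 8.73 to 8.76. Pum3 1434173_s_at had its lowest control value at 10.89 on control 3, against 11.16 to 11.18 on the other controls. Zfp36l1 1450644_at was lowest among controls at 7.14 on control 1, with the others at 7.72 to 7.82. Gstm5 1416842_at was lowest at 7.19 on control 1, with the other controls at 7.85 to 7.89. Control 1 also had the highest Msi2 level of the 8 arrays (10.20).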

How the results depend on the processing

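The count of member probe sets past the adjusted threshold was 0 under all 18 alternatives, and each limma alternative was computed over the whole table. Over all probe sets the count of 0 became 1 with repeated quantile normalization, without means below 5, without _s_at and _x_at probe sets and with array weights, 2 with an intensity trend and robust prior, and 0 to 1 when single arrays were left out (1 without Msi2 KO 1). None of those calls was a member: they were Aplp2 1432344_a_at (1.75 to 1.79), Elovl1 1455994_x_at (1.06, trend) and Zg16 1434137_x_at (3.56, without KO 1). The Msi2 difference of -1.22 ranged from -1.47 to -0.81 without single arrays, where leaving out any 1 control gave exact permutation p of 0.0571 to 0.0857 and leaving out any 1 KO array 0.0286. Replicate numbers did not pair the arrays (correlations of same-numbered deviations -0.121 to 0.132; 1 of 4 KO arrays correlated best with its own number); with the number as a block the Msi2 difference stayed -1.22 with exact p 0.125, the smallest that 4 pairs allow, and 0 probe sets were called. The 0 relations to the Msi2 level became 358 with a limma slope and 203 with slope and group, and 0 with slope and block. Small differences changed sign. Array weights gave -0.12 for Igf2bp3 1422611_s_at, -0.067 for Elavl1 1445521_at, 0.011 for Celf2 1439777_at and -0.033 for Celf2 1444533_at, median centring gave -0.0095 for 1444533_at, and Xist as covariate gave 0.10 for Syncrip 1422768_at and -0.067 for Igf2bp3 1422611_s_at. Without single arrays, differences ran from -0.20 to 0.23 (Syncrip 1422768_at), -0.14 to 0.028 (Syncrip 1428546_at), -0.33 to 0.27 (Igf2bp3 1422611_s_at), -0.058 to 0.15 (Elavl1 1445521_at), -0.078 to 0.036 (Pum2 1418015_at), -0.27 to 0.027 (Celf2 1439777_at) and -0.10 to 0.067 (Celf2 1444533_at). Correlations ran from -0.26 to 0.35 (Syncrip 1422769_at), -0.71 to 0.34 (1428546_at), -0.57 to 0.27 (1450743_s_at), -0.39 to 0.075 (Elavl1 1431037_a_at), -0.44 to 0.30 (1445521_at), -0.11 to 0.44 (Celf2 1439777_at), -0.069 to 0.51 (1444533_at) and -0.31 to 0.89 (1450069_a_at), most turning without KO 3. The cause was not tested. Dazap1 stayed at 0.26 to 0.39 in all alternatives for its difference. Signal near background limits the 5 relative probe sets below 5 in a group.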

Other observations

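4 genes of the lists outside the naming rule were chosen after their values were seen. They were taken because their groups did not overlap, as was so for 7.11% of 10720 genes. That choice fixes their exact permutation p at 0.0286, the smallest for 4 against 4 arrays, so this p is no test of them. Pcbp1, a poly(C)-binding protein, had 10.51, 10.54, 10.88 and 10.65 in Msi2 KO and 10.47, 10.28, 9.95 and 10.20 in control, a difference of 0.42. Its paralogue Pcbp2 had 11.12, 11.29, 11.52 and 11.38 in KO and 11.11, 11.21, 11.02 and 11.11 in control, a difference of 0.22 with a slight overlap. Hnrnpk had 11.80 to 11.90 in KO and 11.93 to 12.01 in control, a difference of -0.15. Plxnc1, a semaphorin receptor, had 9.70, 9.65, 9.70 and 9.81 in KO and 9.42, 9.35, 9.33 and 9.24 in control, a difference of 0.38. Cdc42, a small GTPase of cell polarity, had 11.93 to 12.15 in KO and 12.17 to 12.25 in control, a difference of -0.17. The adjusted p of these 5 in limma were 0.400 to 0.713.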
